A study of Mus musculus with 9 samples.

Results

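Nucleoporins and nuclear transport receptors were followed in separated nuclei and cytoplasms of mouse oocytes, as a set of 55 gene symbols out of 23235 in the deposited table. The members were all symbols that begin with Nup or Nupl and a digit, Kpna, Kpnb, Ipo and a digit, Xpo, Tnpo or Ranbp. They fall into 25 pore genes (the Nup and Nupl symbols and Ranbp2), 25 receptor genes (the Kpna, Kpnb, Ipo, Tnpo and Xpo symbols with Ranbp6 and Ranbp17) and 5 Ran-binding protein genes (Ranbp1, Ranbp3, Ranbp3l, Ranbp9 and Ranbp10). The 4 groups were MTR4-null nucleus (2 libraries), WT nucleus (3 libraries), MTR4-null cytoplasm (2 libraries) and WT cytoplasm (2 libraries), all from oocytes labelled day 21, with 10 nuclei or cytoplasms per library. MTR4 is an RNA helicase that hands nuclear transcripts to the RNA exosome. The design of the null allele and the cells in which it was deleted are not given in the sources used here. Total RNA was depleted of ribosomal RNA and sequenced.

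The nuclear pore is a large ring of many kinds of protein set into the nuclear envelope. An outer ring (the Y complex) and an inner ring build its frame, proteins with phenylalanine-glycine repeats fill its channel, filaments reach into the cytoplasm and a basket reaches into the nucleus. Cargo crosses it bound to receptors of the importin beta family, called importins, transportins or exportins, which bind cargo and release it according to the state of the small GTPase Ran. Importin alpha proteins, encoded by Kpna genes, are adaptors that join a classical nuclear localisation signal to importin beta. An oocyte stores such mRNAs, since the pores and receptors of the early embryo are first made from the maternal supply.

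Values are the authors' FPKM, fragment counts scaled by transcript length and by library size, with 1 column for each group. Values of single libraries were not analysed here, so no difference below has a replicate check, a p-value or an error. Differences are of log2(FPKM + 1), where the added 1 shrinks the difference of a gene with low values, and a gene is counted as apart when it differs at least 2-fold on it. Genes at 1 FPKM or more in at least 1 column were kept, which left 14270 genes and 53 of the 55 members. Nup62cl and Nup210l were below that level in every column, Nup62cl between 0.103 FPKM in WT cytoplasms and 0.8 FPKM in MTR4-null nuclei, and Nup210l between 0.0461 FPKM in WT cytoplasms and 0.581 FPKM in MTR4-null cytoplasms. Ranbp6 passed only through MTR4-null nuclei and Ranbp3l only through WT nuclei, so these 2 had to differ to be kept.

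The Mtr4 transcript, listed as Skiv2l2, stood at 2.91 FPKM in MTR4-null nuclei against 16.2 in WT nuclei, and at 2.51 in MTR4-null cytoplasms against 21.6 in WT cytoplasms. All 10 oocyte markers were above 1 FPKM in every column, summing to between 6377 and 10284 FPKM, while 10 granulosa cell markers summed to between 30.0 and 60.7 FPKM, with Amh listed at 0 in WT nuclei. RNAs that normally stay in the nucleus (Malat1, Neat1, Kcnq1ot1 and Terc) summed to 414 FPKM in MTR4-null nuclei, 657 in WT nuclei, 156 in MTR4-null cytoplasms and 11.0 in WT cytoplasms. Small RNA genes took 53.4%, 57.7%, 39.0% and 4.09% of the column sums in that order of groups. FPKM is relative to the RNA sequenced, so fewer copies per oocyte, less RNA per oocyte and more of other RNAs cannot be told apart. The part of these features in the differences of members was not tested.

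The importin alpha adaptors held the highest levels of the set. Promoters are shown for the 2 most abundant adaptors, Kpna2 and Kpna7, and for Kpna4, an adaptor that stood above WT in MTR4-null oocytes. Each runs from 250 bases before to 50 bases after the transcription start, from RefSeq on GRCm38.p6. All lie on the minus strand, at chr11:106999476-106999775 for Kpna2, chr3:69127043-69127342 for Kpna4 and chr5:145009587-145009886 for Kpna7. Capitals mark 4 motifs searched on both strands, which do not overlap in these promoters: the CCAAT box, the GC box GGGCGG, the E-box CANNTG and the box TATAAA.
Kpna2: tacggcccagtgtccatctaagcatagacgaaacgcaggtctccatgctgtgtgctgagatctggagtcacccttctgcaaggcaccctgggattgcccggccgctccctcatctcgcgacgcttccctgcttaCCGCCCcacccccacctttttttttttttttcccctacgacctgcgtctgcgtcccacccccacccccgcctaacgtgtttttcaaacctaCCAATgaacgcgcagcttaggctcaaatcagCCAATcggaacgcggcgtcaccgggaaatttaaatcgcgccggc
Kpna4: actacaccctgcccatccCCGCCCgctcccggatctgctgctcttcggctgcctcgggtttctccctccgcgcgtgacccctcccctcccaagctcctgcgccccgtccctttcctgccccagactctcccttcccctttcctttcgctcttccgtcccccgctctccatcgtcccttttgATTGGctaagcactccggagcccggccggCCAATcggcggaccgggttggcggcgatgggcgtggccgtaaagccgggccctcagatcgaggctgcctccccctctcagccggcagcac
Kpna7: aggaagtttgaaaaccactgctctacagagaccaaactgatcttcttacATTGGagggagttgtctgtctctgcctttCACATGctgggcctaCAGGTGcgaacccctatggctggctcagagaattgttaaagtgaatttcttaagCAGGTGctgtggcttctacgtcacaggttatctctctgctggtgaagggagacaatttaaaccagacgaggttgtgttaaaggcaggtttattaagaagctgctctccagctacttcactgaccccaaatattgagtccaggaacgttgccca

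Kpna2 and Kpna4 each hold 2 CCAAT motifs and 1 GGGCGG motif, and no CANNTG. Kpna7, known as an importin alpha of the oocyte and early embryo, holds 3 CANNTG motifs, at positions -172, -157 and -103 from the start, and 1 CCAAT motif. Over 32851 promoters of this length, 37.4% hold the CCAAT box, 35.7% hold the GC box, 72.3% hold the E-box and 13.6% hold the box TATAAA. The Kpna7 promoter has a GC content of 46.7%, against 57.7% for Kpna2 and 68.7% for Kpna4. Among 23 promoters of 20 pore genes the median GC content was 64.3%, and among 24 promoters of 20 receptor genes 64.0%, against 52.7% over all promoters. The GC box was present in 65.2% of the pore promoters and 62.5% of the receptor promoters, the CCAAT box in 52.2% and 50%, the E-box in 43.5% and 33.3%, and TATAAA in 13.0% and 8.33%.

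Kpna2 was the most abundant member in each column, at 351 FPKM in MTR4-null nuclei against 375 in WT nuclei, and at 209 in MTR4-null cytoplasms against 442 in WT cytoplasms. Kpna7 followed at 170.3 and 178 FPKM in MTR4-null and WT nuclei and at 113 and 232 in MTR4-null and WT cytoplasms. Together they made up 84.5% to 86.7% of the summed FPKM of the 6 Kpna genes in each column, so their joint share was close in all groups. Their cytoplasmic difference, -1.08 for Kpna2 and -1.03 for Kpna7, was close to that of Kpnb1 (-1.07), the importin beta they bind. It was as close to those of other members, such as Xpo1 (-1.06), Xpo6 (-1.03), Nup98 (-1.02) and Nup35 (-1.02). The median over all genes with a mean of 100 FPKM or more was -0.78. Kpnb1 stood at 66.3 FPKM in MTR4-null nuclei against 72.3 in WT nuclei, and at 44.7 in MTR4-null cytoplasms against 94.7 in WT cytoplasms.

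Kpna4 and Kpna1 went the other way. Kpna4 was at 11.9 FPKM in MTR4-null nuclei against 3.55 in WT nuclei, and at 8.56 in MTR4-null cytoplasms against 1.33 in WT cytoplasms, differences of 1.502 and 2.04. Kpna1 was at 4.11 FPKM in MTR4-null nuclei against 1.81 in WT nuclei, and at 2.45 in MTR4-null cytoplasms against 0.276 in WT cytoplasms. Both MTR4-null columns thus lay above both WT columns for these genes. Their closest paralogues, Kpna3 for Kpna4 and Kpna6 for Kpna1, were lower in MTR4-null. Kpna3 was at 44.3 and 67.8 FPKM in MTR4-null and WT nuclei and at 35.7 and 81.8 in MTR4-null and WT cytoplasms. Kpna6 was at 19.8 and 27.7 FPKM in MTR4-null and WT nuclei and at 12.2 and 31.1 in MTR4-null and WT cytoplasms.

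Set as a share of each pair's summed FPKM, which no scaling of a whole column can alter, Kpna4 held 19.3% of Kpna4 and Kpna3 in MTR4-null cytoplasms against 1.597% in WT cytoplasms. In the nucleus its share was 21.2% in MTR4-null and 4.98% in WT. Kpna1 held 16.7% of its pair with Kpna6 in MTR4-null cytoplasms against 0.878% in WT cytoplasms, and 17.2% in MTR4-null nuclei against 6.13% in WT nuclei. Kpna7 held between 32.2% and 35.2% of its pair with Kpna2 in all 4 columns. These pairs, and the receptor pairs below, were set together after their values were seen. A share is not free of expression level. Over all genes the median cytoplasmic difference was 0.07 at a mean of 1 to 5 FPKM and -0.69 at 20 to 100. The part of level in these shares was not tested. Kpna1 was at 0.276 FPKM in WT cytoplasms, below the 1 FPKM of the filter.

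**Figure D1:**
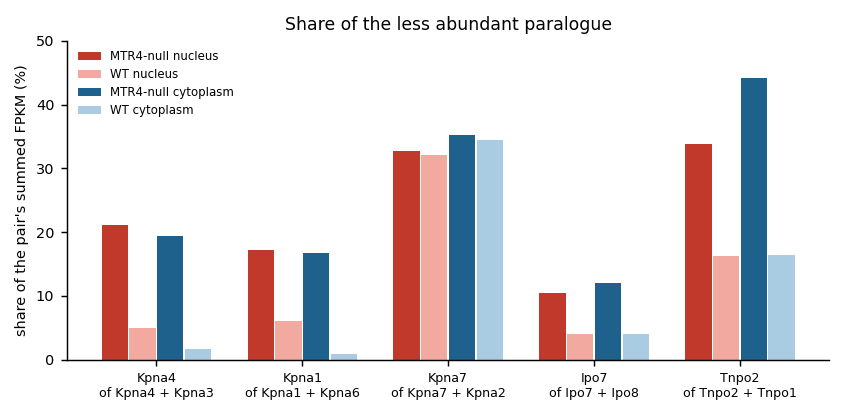
Share (%) of the less abundant gene in the summed FPKM of 5 pairs of related receptor genes, as 1 bar for each group's deposited value, with no error bars because each group has 1 column. The share of Kpna4, Kpna1, Ipo7 and Tnpo2 is higher in the MTR4-null bars than in the WT bars of the same compartment, while that of Kpna7 stays between 32.2% and 35.2%.

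Among import receptors, Tnpo1 (transportin 1, which carries many RNA-binding proteins into the nucleus) had the largest difference below WT of any member. It stood at 51.5 FPKM in MTR4-null nuclei against 111 in WT nuclei, and at 27.3 in MTR4-null cytoplasms against 129 in WT cytoplasms, differences of -1.09 and -2.20. Its close relative Tnpo2 was nearly level, at 26.3 and 21.5 FPKM in MTR4-null and WT nuclei and 21.5 and 25.5 in MTR4-null and WT cytoplasms. Tnpo2 therefore held 44.1% of this pair in MTR4-null cytoplasms and 16.5% in WT cytoplasms, and 33.8% in MTR4-null nuclei and 16.2% in WT nuclei. Tnpo3, which imports splicing factors of the SR family, was at 9.84 FPKM in MTR4-null cytoplasms against 1.999 in WT cytoplasms, and at 12.5 in MTR4-null nuclei against 9.18 in WT nuclei. WT cytoplasms were the low column for Tnpo3, with the other 3 columns close together. In GENCODE M21, 9.67% of the exonic bases of Tnpo3 overlap Irf5 on the opposite strand. For Tnpo2, 11.1% overlap A230103J11Rik, also on the opposite strand. Whether reads were counted by strand is not stated in the sources used here.

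Ipo8, an importin beta relative known to bind Argonaute proteins, was the most abundant import receptor. It was at 101 FPKM in MTR4-null nuclei against 135 in WT nuclei, and at 58.1 in MTR4-null cytoplasms against 168 in WT cytoplasms. Ipo7, its nearest relative, was at 11.8 and 5.77 FPKM in MTR4-null and WT nuclei and at 7.92 and 7.13 in MTR4-null and WT cytoplasms. Ipo7 thus held 12.0% of the pair in MTR4-null cytoplasms and 4.07% in WT cytoplasms. Ipo4, which can carry histones, was at 14.0 FPKM in MTR4-null nuclei against 5.90 in WT nuclei, a difference of 1.11, and at 8.04 against 7.38 in the cytoplasm of MTR4-null and WT. In GENCODE M21, 60.1% of the exonic bases of Ipo4 are shared with the overlapping gene Gm49378 on the same strand, so its value may include reads of that gene.

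The other import receptors were less than 2-fold apart by genotype. Ipo5, Ipo9, Ipo11 and Ipo13 had nuclear differences from -0.50 for Ipo9 to 0.67 for Ipo5 and cytoplasmic differences from -0.82 for Ipo9 to -0.11 for Ipo11. Ranbp17, an exportin relative of Xpo7, was at 11.7 FPKM in MTR4-null nuclei against 2.21 in WT nuclei, a difference of 1.98, and at 5.47 and 3.79 in MTR4-null and WT cytoplasms. Ranbp6, an importin-like gene with 1 exon, was at 1.43 FPKM in MTR4-null nuclei and between 0.102 and 0.779 in the other columns.

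Of 6 export receptors, 1 stood above and 4 below WT by 2-fold or more in the cytoplasm, where 15.0% of all genes kept were above and 21.4% below. Xpot, the exportin of transfer RNA, was at 8.21 FPKM in MTR4-null nuclei against 1.31 in WT nuclei, and at 5.82 in MTR4-null cytoplasms against 0.698 in WT cytoplasms, differences of 1.996 and 2.01. Both MTR4-null columns were above both WT columns. Xpo1 (CRM1, the general exportin of proteins with a leucine-rich signal) was at 33.0 and 29.7 FPKM in MTR4-null and WT nuclei, but at 12.2 in MTR4-null cytoplasms against 26.5 in WT cytoplasms. Xpo5, the exportin of microRNA precursors, was at 19.6 and 16.5 FPKM in MTR4-null and WT nuclei and at 9.33 against 24.5 in MTR4-null and WT cytoplasms. For these genes the low column was that of MTR4-null cytoplasms. Xpo6, which exports actin, and Xpo7 had cytoplasmic differences of -1.03 and -1.37 with nuclear ones of 0.12 and -0.07, and Xpo4 had -0.62 and 0.02.

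**Figure D2:**
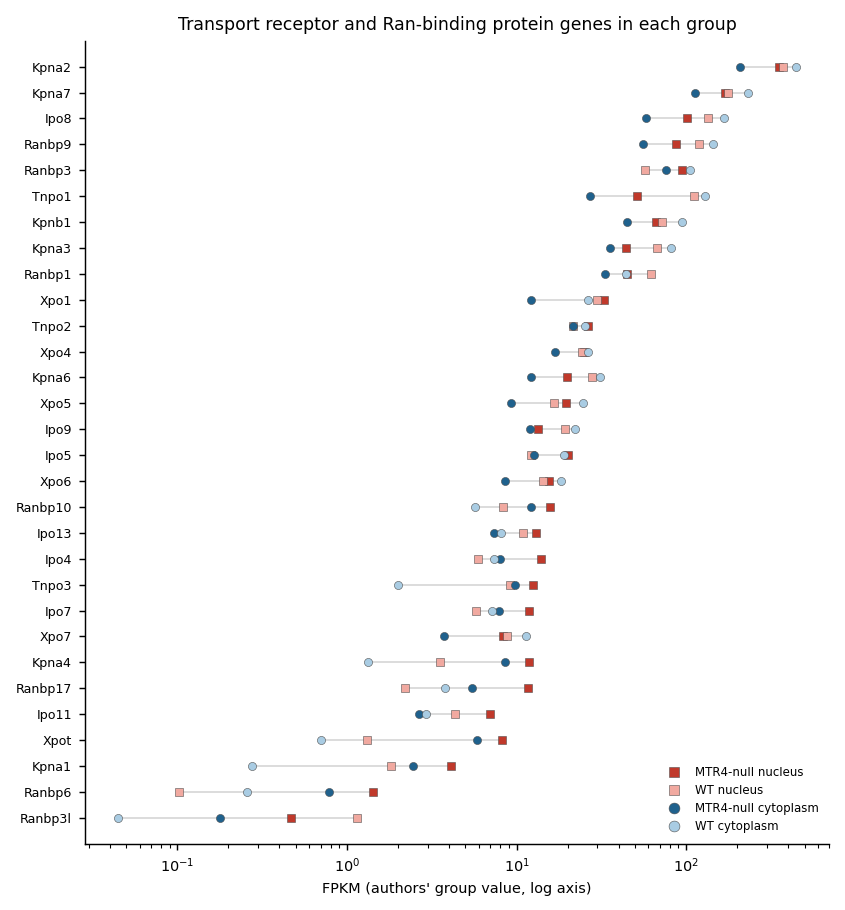
FPKM (log axis) of the 25 receptor and 5 Ran-binding protein genes that were kept, 1 row per gene ordered by mean level, with red squares for nuclei and blue circles for cytoplasms (dark for MTR4-null, pale for WT). Kpna2 is highest in each group. In 9 of these rows (Ipo4, Ipo7, Kpna1, Kpna4, Ranbp6, Ranbp10, Ranbp17, Tnpo3 and Xpot) both pale WT points lie left of both dark points. In 9 receptor rows and 1 Ran-binding row they lie right of both dark points. The share of all genes kept with either order was not computed, and Ranbp6 was kept only through MTR4-null nuclei.

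Pore genes differed by -0.68 (Nup205) to 1.06 (Nup62-il4i1) in nuclei, and by -1.76 (Nup214) to 1.42 (Nupl2) in cytoplasms. Of the Y complex, the outer ring, 6 genes carry a Nup symbol. These 6 were below WT in the cytoplasm, with differences from -0.98 for Nup37 to -0.15 for Nup85. Below WT there were 59.9% of all genes kept, and 69.4% of those with a mean of at least 5 FPKM, a level that all 6 reached. None of the 6 was 2-fold apart by genotype on log2(FPKM + 1). Of all genes kept, 23.9% were above WT by that much and 12.3% below in the nucleus, and 15.0% above and 21.4% below in the cytoplasm. Without the added 1, the FPKM ratio of MTR4-null to WT passed 2-fold for Nup85 in nuclei (2.01). In cytoplasms it did so for Nup133 (0.476) and Nup37 (0.492). Nup107 was at 78.4 and 67.1 FPKM in MTR4-null and WT nuclei and at 58.2 and 74.1 in MTR4-null and WT cytoplasms. Nup85 was at 97.4 FPKM in MTR4-null nuclei against 48.5 in WT nuclei, a difference of 0.99, just under the 2-fold line. Nup133 was at 9.21 and 7.43 FPKM in MTR4-null and WT nuclei and at 3.35 and 7.03 in MTR4-null and WT cytoplasms. The remaining outer ring genes, Nup160, Nup37 and Nup43, had nuclear differences of 0.02, 0.10 and -0.39.

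The inner ring, built by Nup93, Nup188, Nup205, Nup155 and Nup35, had a median of 0.04 in the nucleus and -0.75 in the cytoplasm. Nup188 was at 16.9 and 20.1 FPKM in MTR4-null and WT nuclei and at 10.7 against 30.6 in MTR4-null and WT cytoplasms, a cytoplasmic difference of -1.43. Nup35 was at 62.5 and 49.7 FPKM in MTR4-null and WT nuclei and at 34.4 against 71.0 in MTR4-null and WT cytoplasms. Nup205 was the inner ring gene with a higher level in WT nuclei than in WT cytoplasms, at 26.9 FPKM in WT nuclei against 14.0 in WT cytoplasms, and at 16.4 and 10.1 in MTR4-null nuclei and cytoplasms.

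In the channel, Nup62 was at 112 FPKM in MTR4-null nuclei against 76.8 in WT nuclei, and at 69.8 in MTR4-null cytoplasms against 97.7 in WT cytoplasms. Nup54 and Nupl1, its partners in the channel complex, had nuclear differences of -0.14 and 0.32 and cytoplasmic ones of -0.88 and -0.55. Nup62-il4i1, named as a read-through of Nup62 into its neighbour, was at 4.11 and 1.45 FPKM in MTR4-null and WT nuclei and at 2.59 and 3.81 in MTR4-null and WT cytoplasms, and it shares sequence with Nup62, so how reads were split between them is uncertain. Nup98, whose precursor also yields the Y complex protein Nup96, was the most abundant pore gene by mean level. It stood at 112 and 129 FPKM in MTR4-null and WT nuclei and at 83.8 and 171 in MTR4-null and WT cytoplasms.

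On the cytoplasmic face, Nup214 and Nupl2 differed in opposite directions. Nup214, a filament protein that binds Xpo1, was at 72.0 FPKM in MTR4-null nuclei against 115 in WT nuclei, and at 43.9 in MTR4-null cytoplasms against 151 in WT cytoplasms, differences of -0.67 and -1.76. Nup88, its binding partner, had differences of 0.50 in the nucleus and -0.33 in the cytoplasm. Nupl2, which works with Gle1 in mRNA export, was at 3.94 and 3.46 FPKM in MTR4-null and WT nuclei, and at 5.84 in MTR4-null cytoplasms against 1.56 in WT cytoplasms. WT cytoplasms were its low column, as for Tnpo3. Ranbp2, the largest filament protein and a SUMO ligase, was at 21.6 and 19.7 FPKM in MTR4-null and WT nuclei and at 12.0 and 16.7 in MTR4-null and WT cytoplasms.

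Of the basket, Nup153 was at 34.3 and 46.0 FPKM in MTR4-null and WT nuclei and at 21.5 against 50.4 in MTR4-null and WT cytoplasms, while Nup50, which helps release cargo from importin alpha, had differences of 0.18 and -0.72. The membrane-spanning Nup210 was low throughout, at 3.24 and 2.25 FPKM in MTR4-null and WT nuclei and at 2.28 and 1.78 in MTR4-null and WT cytoplasms.

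**Figure D3:**
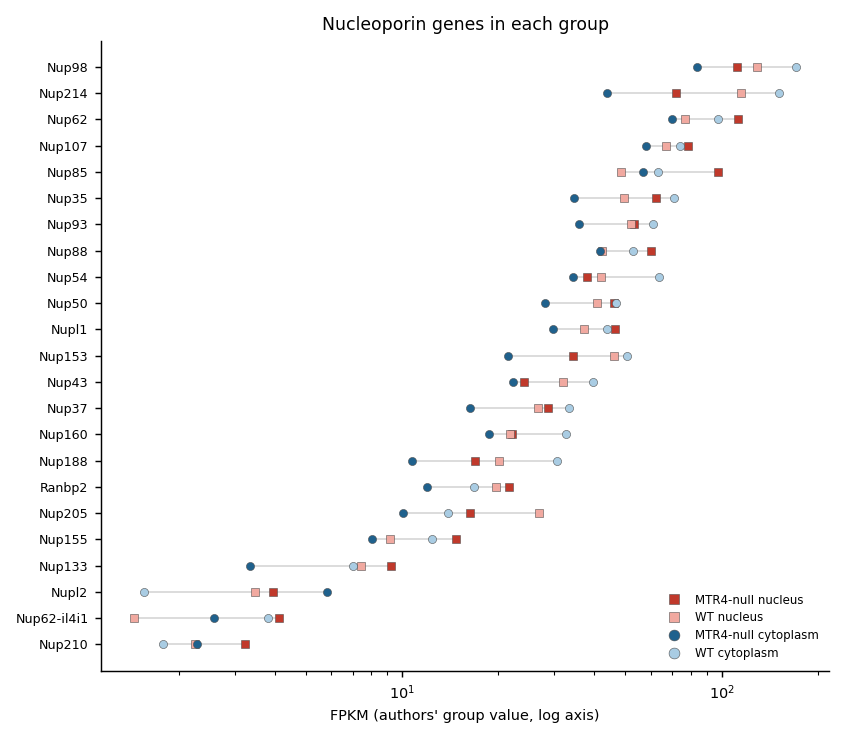
FPKM (log axis) of the 23 pore genes that were kept, 1 row per gene ordered by mean level, with red squares for nuclei and blue circles for cytoplasms (dark for MTR4-null, pale for WT). The dark blue point of MTR4-null cytoplasms is the leftmost in most rows, and Nupl2, at 5.84 FPKM there against 1.56 in WT cytoplasms, is the opposite case.

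Among the Ran-binding proteins, Ranbp1, a cofactor in the turnover of Ran-bound GTP, was at 45.1 and 62.1 FPKM in MTR4-null and WT nuclei and at 33.3 and 44.0 in MTR4-null and WT cytoplasms. Of its exonic bases, 25.9% are shared with Gm49776 on the same strand in GENCODE M21, so its value may include reads of that gene. Ranbp3, a cofactor of Xpo1, was at 95.1 and 57.5 FPKM in MTR4-null and WT nuclei and at 76.2 and 105 in MTR4-null and WT cytoplasms. Ranbp9 and Ranbp10 are related scaffold proteins of a ubiquitin ligase and are not transport factors. Ranbp9 was at 87.3 and 119 FPKM in MTR4-null and WT nuclei and at 55.6 and 144 in MTR4-null and WT cytoplasms. Ranbp10 was at 15.7 and 8.31 FPKM in MTR4-null and WT nuclei and at 12.1 and 5.71 in MTR4-null and WT cytoplasms. The pair thus differed in opposite directions in both compartments, with cytoplasmic differences of -1.36 for Ranbp9 and 0.96 for Ranbp10.

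Over the set, the genotype difference in the nucleus was small. Among the 53 members kept, 6 were higher in MTR4-null by 2-fold or more (Xpot, Ranbp17, Kpna4, Ranbp6, Ipo4 and Nup62-il4i1) and 1, Tnpo1, at least 2-fold lower, or 11.3% and 1.89%. Ranbp6 was kept only through MTR4-null nuclei, the column in which it is counted as higher. Of 45 members with a mean of at least 5 FPKM over the columns, 3 were higher and 1 lower, or 6.67% and 2.22%. Among all genes kept the shares were 23.9% higher and 12.3% lower, and among genes with a mean of at least 5 FPKM 22.1% and 7.99%. The 23 pore genes had a median difference of 0.15 with quartiles of -0.17 and 0.35, the 25 receptor genes 0.23 with quartiles of -0.09 and 0.86, and all genes 0.21. The pore median turned to between -0.0571 and -0.0013 under 3 other scalings of the columns (centring on all genes kept, centring on genes detected in every column, and equal sums without small RNAs).

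In the cytoplasm 5 members lay above WT by 2-fold or more (Kpna4, Xpot, Tnpo3, Kpna1 and Nupl2) and 17 lay below it as far, or 9.43% and 32.1%. All genes kept had 15.0% higher and 21.4% lower, and genes with a mean of at least 5 FPKM had 12.5% and 28.0%. Of 45 members at that level 2 were higher and 17 lower, or 37.8%. The lower ones were 5 pore genes (Nup214, Nup188, Nup153, Nup98 and Nup35), 11 receptor genes (Tnpo1, Ipo8, Xpo7, Xpo5, Kpna6, Kpna3, Kpna2, Kpnb1, Xpo1, Xpo6 and Kpna7) and Ranbp9. Pore genes had a median of -0.72 with quartiles of -0.93 and -0.43, and receptor genes -0.62 with quartiles of -1.08 and 0.13, against -0.26 over all genes and -0.54 over those with a mean of at least 5 FPKM. The count of lower members depended on the scaling of the columns: it was 8 after centring on all genes kept and 2 after centring on genes detected in every column or after equalising the sums without small RNAs, and the class medians then lay between -0.46 and -0.047.

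Pore minus receptor medians were -0.10 in the cytoplasm and -0.08 in the nucleus over the members kept, small beside the spread within each class. The direction in the cytoplasm turned among members with a mean of at least 5 FPKM, where the median was -0.76 for 20 pore genes and -1.03 for 21 receptor genes. Receptor genes held both ends of the range, from -2.20 for Tnpo1 to 2.04 for Kpna4. At a mean of at least 5 FPKM, all 20 pore genes were below WT in the cytoplasm, from -1.76 to -0.15, and of 21 receptor genes 16 were below and 5 above, against 69.4% below over all genes at that level. After centring on genes detected in every column, 14 of the 20 pore genes and 14 of the 21 receptor genes were below 0. After centring on all genes kept, 19 of the 20 pore genes and 14 of the 21 receptor genes were. The share of all genes at that level below 0 after centring was not computed. Their median of -0.54 lay below both medians subtracted (-0.52 and -0.26), so most of these genes were below 0 as well. No test of this contrast is possible with 1 column a group.

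**Figure D4:**
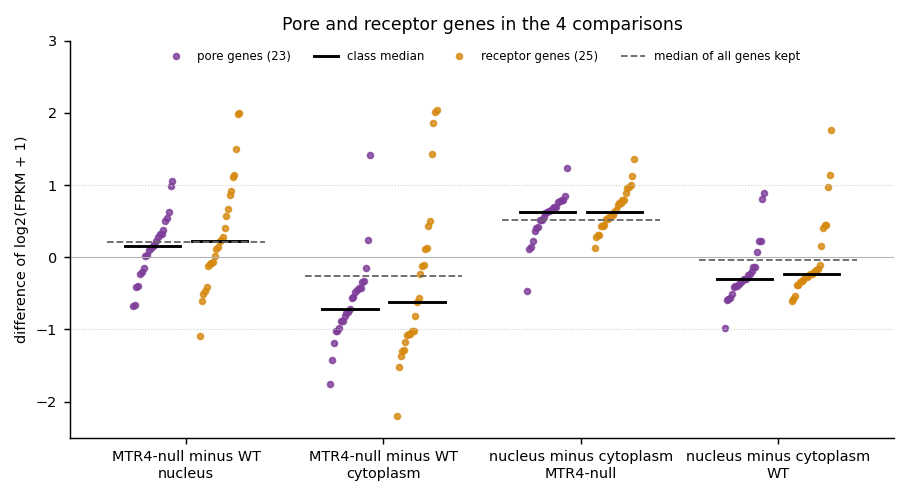
Differences of log2(FPKM + 1) of the 23 pore genes (purple) and 25 receptor genes (orange) kept, for MTR4-null minus WT in each compartment and for nucleus minus cytoplasm in each genotype, with 1 point per gene, a solid line at the class median and a dashed line at the median of all genes kept. Class medians lie close together in each comparison, and receptor points spread more widely than pore points in both genotype comparisons.

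The differences went with expression level, in members and in genes at large. Across 51 members with an annotated transcript, the cytoplasmic difference had a Pearson's r of -0.63 and a Spearman's rho of -0.63 with log2 mean FPKM, and the nuclear one an r of -0.43 and a rho of -0.46. These are descriptions across genes of the same 4 columns, which also enter the mean. Over all genes the median cytoplasmic difference was 0.07 at a mean of 1 to 5 FPKM, -0.32 at 5 to 20, -0.69 at 20 to 100 and -0.78 at 100 or more. With the median of genes of like level subtracted, the cytoplasmic median was -0.12 for pore genes and -0.19 for receptor genes. Transcript GC content, which went with the genotype difference over all genes (median nuclear difference -0.08 in the lowest of 5 GC bins and 0.60 in the highest), had an r of 0.05 in the nucleus and -0.07 in the cytoplasm among members. The median GC content was 47.6% for 21 annotated pore genes and 46.0% for 25 receptor genes.

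**Figure D5:**
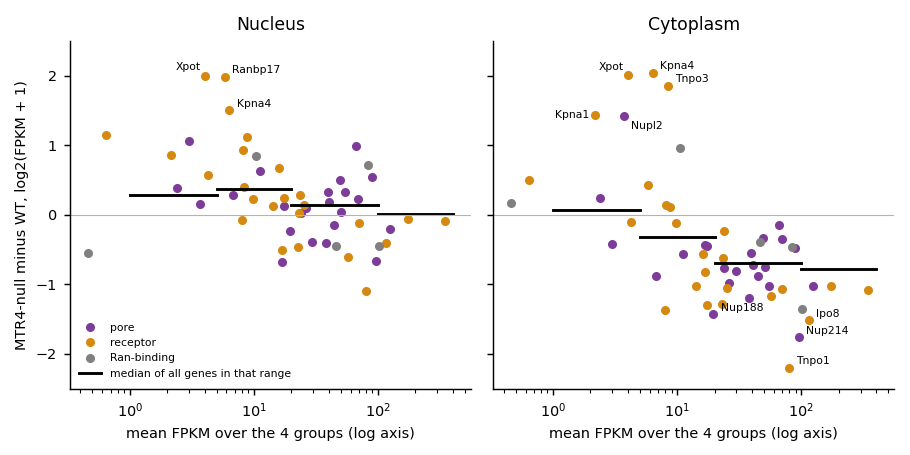
MTR4-null minus WT difference of log2(FPKM + 1) against mean FPKM over the 4 groups (log axis) for each member kept, in the nucleus (left) and cytoplasm (right), with black lines at the median of all genes in 4 ranges of mean FPKM. In the cytoplasm the lines step down from 0.07 to -0.78, and Kpna4, Xpot, Tnpo3, Kpna1 and Nupl2 stand above them and Tnpo1 below.

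Because a rescaling of a whole column moves every gene, the calls were recomputed under 5 other scalings: centring on genes detected in every column, centring on all genes kept, equal sums without small RNAs, and subtraction of the median of genes of like level or like GC content. All 5 members higher in the cytoplasm (Kpna4, Xpot, Tnpo3, Kpna1 and Nupl2) were at least 2-fold higher under each. Kpna4 lay between 2.26 and 2.56 and Xpot between 1.93 and 2.52. Both centrings, the rescaling and the GC subtraction could not have ended these calls. The centrings subtract medians of -0.52 and -0.26 from each cytoplasmic difference, and the rescaling (log2 factor 0.60) raises it too. The same shifts move members below WT towards 0. The GC bins that hold these 5 members have medians of -0.51, -0.48 or -0.40, so that subtraction raised each of them. Level subtraction raised Kpna4 to 2.26 and Tnpo3 to 2.07, and lowered Xpot to 1.93, Kpna1 to 1.36 and Nupl2 to 1.34. With a pseudocount of 5 in place of 1, Kpna4 (1.10) and Tnpo3 (1.08) were still 2-fold higher there, while Xpot was at 0.93, Nupl2 at 0.73 and Kpna1 at 0.498. Of the 17 lower ones, 2 were lower under each, Tnpo1 between -1.94 and -1.44 and Nup214 between -1.51 and -1.0004. In the nucleus Xpot, Ranbp17 and Kpna4 were higher and Tnpo1 lower under each. There the centrings subtract 0.19 and 0.21 and the rescaling (log2 factor -0.18) lowers each difference, so these could not have ended the call of Tnpo1. Nor could level subtraction, which moved Tnpo1 to -1.16. GC subtraction raised Kpna4 to 1.58, Ranbp17 to 1.987 and Xpot to 1.998, so it could not have ended those calls. Kpna2, the most abundant, ran from -0.82 to -0.32 in the cytoplasm under these scalings.

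Between compartments, nuclear minus cytoplasmic differences were small in WT. Of the members kept, 3 were at least 2-fold higher in WT nuclei than in WT cytoplasms (Tnpo3, Kpna1 and Ranbp3l), or 5.66% against 12.4% of all genes, and 0 were lower against 4.71%. The median was -0.31 for pore genes and -0.23 for receptor genes, against -0.04 over all genes and -0.14 over genes with a mean of at least 5 FPKM. In MTR4-null, 3 were higher in the nucleus (Xpo1, Nup133 and Ipo11), or 5.66% against 17.0% of all genes, and 0 lower against 1.84%. Medians there were 0.63 for both classes, against 0.52 over all genes, and between 0.0264 and 0.11 under the 3 scalings. Ipo11, which imports ubiquitin-conjugating enzymes, was at 6.97 FPKM in MTR4-null nuclei and 2.65 in MTR4-null cytoplasms. Ranbp3l, a relative of Ranbp3, was at 1.15 FPKM in WT nuclei and at 0.467 or below in the other columns. It was kept only through WT nuclei, the column in which it is counted as higher.

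The nucleus-to-cytoplasm difference was larger in MTR4-null than in WT for 44 of the 53 members, or 83.0%, against 71.5% of all genes and 84.1% of genes with a mean of at least 5 FPKM. Its median increase was 0.82 over the members kept, 0.57 over all genes kept and 0.74 over those more abundant genes. Tnpo3 and Nupl2 were the members furthest in the other direction, at -1.45 and -1.27. For Xpo1 the nucleus minus cytoplasm difference was 1.36 in MTR4-null and 0.16 in WT. For Ranbp17 the increase was 1.55, the highest of the members.

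Other genes of the pathway, from lists of textbook members outside the naming rule, are given for comparison. Of 9 further pore genes kept, out of 10 in the table, 1 (Rae1, an mRNA export factor that binds Nup98) was apart upward in the nucleus and 0 downward, and in the cytoplasm 0 were higher and 2 lower (Tmem48, the membrane nucleoporin Ndc1, and Tpr, the basket filament). The 2 of 9 are 22.2%, near the 21.4% of all genes kept that were lower there, and the 1 of 9 is 11.1%, against 23.9% higher in the nucleus. Tpr was at 21.1 and 19.8 FPKM in MTR4-null and WT nuclei and at 8.86 against 24.9 in MTR4-null and WT cytoplasms. Seh1l, a Y complex member, was the only one of the 9 above WT in the cytoplasm, at 27.3 FPKM in MTR4-null against 18.1 in WT. Of 14 further transport genes kept, 2 (Nxf1 and Ran) were higher in the nucleus and 0 lower, and 0 were higher and 3 lower in the cytoplasm (Snupn, Ddx19a and l7Rn6). These are 14.3% higher in the nucleus against 23.9% of all genes kept, and 21.4% lower in the cytoplasm, the same share as over all genes kept. Ddx19a is an RNA helicase of mRNA export, and l7Rn6 (Hikeshi) imports heat shock proteins.

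Ran itself was at 50.7 FPKM in MTR4-null nuclei against 24.0 in WT nuclei, and at 31.5 in MTR4-null cytoplasms against 19.97 in WT cytoplasms. Nxf1, the main export receptor of mRNA, which is no importin beta relative, was at 80.6 and 36.6 FPKM in MTR4-null and WT nuclei and at 59.8 and 46.4 in MTR4-null and WT cytoplasms. Snupn, the import adaptor of spliceosomal small nuclear RNPs, was at 25.5 and 22.9 FPKM in MTR4-null and WT nuclei and at 12.7 against 43.7 in MTR4-null and WT cytoplasms. Cse1l, the exportin that returns importin alpha to the cytoplasm, had differences of 0.50 in the nucleus and -0.27 in the cytoplasm, at 18.9 and 13.1 FPKM in MTR4-null and WT nuclei and at 12.1 and 14.9 in MTR4-null and WT cytoplasms.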

How the data were processed

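Total RNA of nuclei and cytoplasms from MTR4-null and WT oocytes was sequenced in 9 libraries in 4 groups, per the labels. The authors deposited 1 table of FPKM with 1 column per group. How libraries were combined, the annotation and the settings are not given in the sources used here. TopHat2 2.1.1, Cufflinks 2.2.1 and mm9 are named in the submitters' processing notes. Read depth is unknown, so no interval or detection limit is given, and 1 row without a gene name, the column sum, was left out.

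Members were found by symbol. Differences of log2(FPKM + 1) were computed with pandas 2.3.3 on genes at 1 FPKM or more in at least 1 column, and a 2-fold threshold was used for counts, read against the share of all genes kept. The counting was tested on simulated data. Every kept member could be named, with full values for members at least 2-fold apart, the highest and lowest of each class and examples of each subcomplex or receptor kind. Transcript length, GC content, exons and overlaps came from GENCODE M21 and promoters from RefSeq (GRCm38.p6), with no coordinates converted from mm9, and 53 of 55 members matched. Alternatives were the pseudocount, the filter, the fold, 3 scalings and narrower classes, with GC and level subtraction added after seeing the data. The members, lists and classes were chosen with earlier results of these data known. With 1 value per group no p-value was computed.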

Additional observations from a re-analysis of the deposited data

How the results depend on the processing

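No paired analysis was possible because each group has 1 deposited column, and leaving out replicates was not run for the same reason. A median was taken as moved beyond 0.2 on the log2 scale and a count beyond 1.5 times.

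Pseudocounts of 0.1 and 5, no filter, a filter at 5 FPKM and narrower classes left every class median within 0.2 of its value. Scaling moved the medians. In the nucleus, MTR4-null minus WT, the pore median turned to -0.0451 when centred on genes at 1 FPKM in every column, -0.0571 when centred on all genes kept, -0.0013 when rescaled without small RNAs and -0.14 with the level bin subtracted. The receptor median became 0.02 when centred on all genes kept and -0.12 with the level bin subtracted. In the cytoplasm, in the same order, the pore median was -0.20, -0.46, -0.14 and -0.12 and the receptor median -0.0988, -0.35, -0.047 and -0.19, and with the GC bin subtracted they were -0.33 and -0.12. In MTR4-null, nucleus minus cytoplasm, the pore median was 0.056, 0.11, 0.0264 and 0.0213 and the receptor median 0.0541, 0.10, 0.0876 and 0.12. WT compartment medians stayed within 0.2. The median difference over all genes kept, which centring subtracts, was 0.21 in the nucleus and -0.26 in the cytoplasm.

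Members higher in the nucleus numbered 2 with a pseudocount of 5, 3 with either centring and 13 at 1.5-fold. Those lower numbered 2 with a pseudocount of 0.1 or the GC bin subtracted, and 4 at 1.5-fold. In the cytoplasm 2 were higher with a pseudocount of 5. The 17 lower in the cytoplasm became 2 when centred on genes in every column or rescaled without small RNAs, 8 when centred on all genes kept, 4 with the GC bin and 3 with the level bin subtracted, and 26 at 1.5-fold. Over single members at least 2-fold apart, 196 recomputed values stayed past the threshold, 107 did not and 0 changed sign. Of those that stayed, 35 came from no filter, 30 from the filter at 5 FPKM and 35 from a pseudocount of 0.1. These 3 settings could not have brought a member back under the threshold, since filters leave a difference unchanged and the smaller pseudocount enlarges it. Centring, rescaling and bin subtraction shift whole columns or bins by construction, a pseudocount of 5 shrinks differences of low genes, and what set the column-wide shift was not tested.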
